A study of Homo sapiens with 8 samples.

Results

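The genes described here are the mitochondrial import translocases (symbols beginning TOMM or TIMM with a number) and the SLC25 carriers (SLC25A with a number). The rule that picks them reads the symbol alone, but it was chosen with earlier results of these data known. They made up 75 of the 57820 gene entries in the tables, with 25 import entries covering 24 symbols and 50 carrier entries covering 48 symbols. RNA was measured in the human lung adenocarcinoma line A549, an established culture line, in 8 poly(A) RNA-seq libraries, 2 per group (replicates A and B). The groups were A549 cells overexpressing MGA, A549 cells with an empty vector, A549 cells treated with siMYC (an siRNA against MYC) and A549 cells treated with siNC (a control siRNA). No clone, promoter of the vector, dose or time is given in the sources used here. The series title puts MGA forward as a repressor of MYC target genes, and these comparisons ask how the import and carrier genes stood under more MGA and under less MYC. The labels do not say whether replicates A and B were grown separately, and the p-values below reflect the spread between these libraries, which may be technical.

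Most mitochondrial proteins are encoded in the nucleus and made in the cytosol. The TOM complex of the outer membrane takes them in, the TIM23 complex passes proteins with an amino-terminal presequence on to the matrix, and small TIMM chaperones hand hydrophobic proteins to the TIM22 complex for insertion in the inner membrane. The SLC25 carriers are themselves substrates of the small TIMM and TIM22 route, and they exchange nucleotides, phosphate, metabolites, amino acids and cofactors across the inner membrane. MYC and MGA are transcription factors that each pair with MAX on the E-box sequence CACGTG, where MYC is best known for raising and MGA for lowering transcription.

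Library totals ran from 917548 to 1176890 expected counts in MGA cells, 820428 to 844477 in empty vector cells, 1598792 to 2129006 in siMYC cells and 1398805 to 1741730 in siNC cells. These totals are low for a human transcriptome, and the median count of a tested member was 56 for import genes and 37 for carriers. Normalised read counts below are counts scaled by TMM to library size (CPM). In each experiment the manipulated gene followed its label. MGA was at 102500 and 103700 CPM in MGA cells, against 121.6 and 81.54 CPM in empty vector cells. MYC was at 48.26 and 41.12 CPM in siMYC cells, against 219.3 and 182.5 CPM in siNC cells. MYC itself was called higher with MGA, at 295.6 and 347 CPM in MGA cells against 233.9 and 241 CPM in empty vector cells (log2 fold change 0.43, adjusted p = 0.025). The epithelial keratins KRT8 and KRT18 were at 873.9 CPM or more in every library, while EPCAM, another epithelial marker, was at 0 in both MGA libraries and in 1 empty vector library. KRT19, also epithelial, was at 6.946 to 11.99 CPM in empty vector and MGA libraries. In siNC and siMYC libraries KRT19 was at 40.24 to 110.3 CPM. MUC1 was at 4.631 CPM or less in every library. Of 11 matched markers of other cell types, 6 were at 0 in all libraries, among them CD3E, PTPRC, SFTPA1, SFTPC and VWF. The summed level of that list was 157.5 to 166.2 TPM in MGA cells against 180.5 to 184.7 TPM in empty vector cells, and 124.6 to 126.3 TPM in siMYC cells against 26.16 to 36.17 TPM in siNC cells, mostly from CD68 and COL1A1. The part of these genes in the results below was not tested.

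Of the 75 entries, 59 passed the filter on low counts and 16 did not. The tested entries were 23 import genes and 36 carrier entries, or 35 carriers when SLC25A6, listed at each copy of its pseudoautosomal locus with its reads divided equally, is counted once. Among the 16 others, 6 were at 0 in all libraries: TOMM20L, SLC25A2, SLC25A18, SLC25A31, SLC25A48 and a second entry of SLC25A10. The highest count of any untested entry in a library was 12.

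On the length-corrected TPM scale the family was led by a few members. SLC25A5, the main ADP/ATP carrier of dividing cells, had a level of 567.5 TPM averaged over the 8 libraries, and SLC25A3, the phosphate carrier, 557.7 TPM. SLC25A6, another ADP/ATP carrier, followed at 136.5 TPM per copy. With SLC25A6 taken per copy, these 3 together held 50.4 to 59.1% of the carrier TPM in each library. The carrier TPM included each copy of SLC25A6, so the share of the 3 genes with all copies was higher. The import genes were more even. TOMM5 and TOMM6, small subunits of the TOM complex, averaged 269.8 and 220.1 TPM, and TIMM50, the receptor of the TIM23 complex, 175.5 TPM. In the 4 control libraries the median level was 69.3 TPM for import genes (7.62 to 316) and 24.2 TPM for carriers (4.66 to 650).

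Promoters were searched for the E-box letters CACGTG (a palindrome, so both strands are read at once) in RefSeq sequences of the GRCh38.p14 build, from 250 bases before to 50 bases after the annotated start. A promoter was found for 62 of the 72 symbols. The E-box was in 3 of 22 import promoters (13.6%), in 7 of 40 carrier promoters (17.5%) and in 2548 of all 35116 promoters (7.26%). The last set was not limited to genes tested here, and the difference in share was not tested. The windows below are shown because they put the E-box of members that moved in different directions beside that of members that did not pass the test. Each reads 5′ to 3′ along the gene's own strand, with the E-box in capitals and 20 bases on each side. The first is from a gene higher with siMYC, the next 3 are from genes lower with siMYC and the last 4 are from genes not called with siMYC.
TOMM20, chr1:235128980-235129025, minus strand: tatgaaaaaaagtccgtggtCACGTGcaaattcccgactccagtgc
TIMM10, chr11:57530730-57530775, minus strand: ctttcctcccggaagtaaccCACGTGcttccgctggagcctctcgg
SLC25A13, chr7:96322227-96322272, minus strand: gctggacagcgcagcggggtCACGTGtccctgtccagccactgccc
SLC25A38, chr3:39383306-39383351, plus strand: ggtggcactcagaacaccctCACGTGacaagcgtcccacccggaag
SLC25A33, chr1:9539419-9539464, plus strand: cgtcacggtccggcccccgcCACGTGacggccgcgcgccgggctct
SLC25A36, chr3:140941673-140941718, plus strand: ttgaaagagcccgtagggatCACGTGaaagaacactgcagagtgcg
SLC25A46, chr5:110738940-110738985, plus strand: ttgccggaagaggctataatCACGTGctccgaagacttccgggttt
SLC25A51, chr9:37904161-37904206, minus strand: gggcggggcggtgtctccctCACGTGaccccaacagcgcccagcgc

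The first base of the E-box lay at -168 from the start in TOMM20, at -1 in TIMM10, at -154 in SLC25A13 and at -44 in SLC25A38. The remaining matches were in TIMM8A, at 29, and in SLC25A31, which had 4 copies and no counts. Among promoters found, the E-box was in 4 of 25 members called lower with siMYC (16%), 1 of 5 called higher (20%) and 4 of 20 tested and not called (20%). The promoters of TOMM40, TOMM70A and SLC25A5, described below, held no match in this window. The T-box letters AGGTGTGA, the core bound by T-box factors such as MGA, were searched on both strands and were in 344 of the 35116 promoters (0.98%) and in 0 member promoters.

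MYC silencing was accompanied by lower RNA of most import genes and of fewer carriers. Calls were made in edgeR's quasi-likelihood test, as genes with an adjusted p (over all 11218 tested) below 0.05. With siMYC, 18 of the 23 tested import genes were called lower and 1 higher, where 39% of all genes were called, 20% lower and 19% higher. Of the 35 carriers, 11 were called lower and 5 higher. The median log2 fold change was -0.81 for the import genes, -0.30 for the carriers and 0.01 for all genes. The carrier median was -0.16 without siNC replicate B and -0.44 without siNC replicate A. On log2(TPM + 0.5) it was -0.05, where the median of all genes was 0.14. Both siMYC libraries lay below both siNC libraries for 19 import genes and 16 carriers, where 33.6% of all genes did so. The reverse held for 2 import genes and 8 carriers, where 34% of all genes did so. The calls come from these same libraries. Where groups of a called gene are said below not to overlap, this describes its values and adds no further support.

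**Figure D1:**
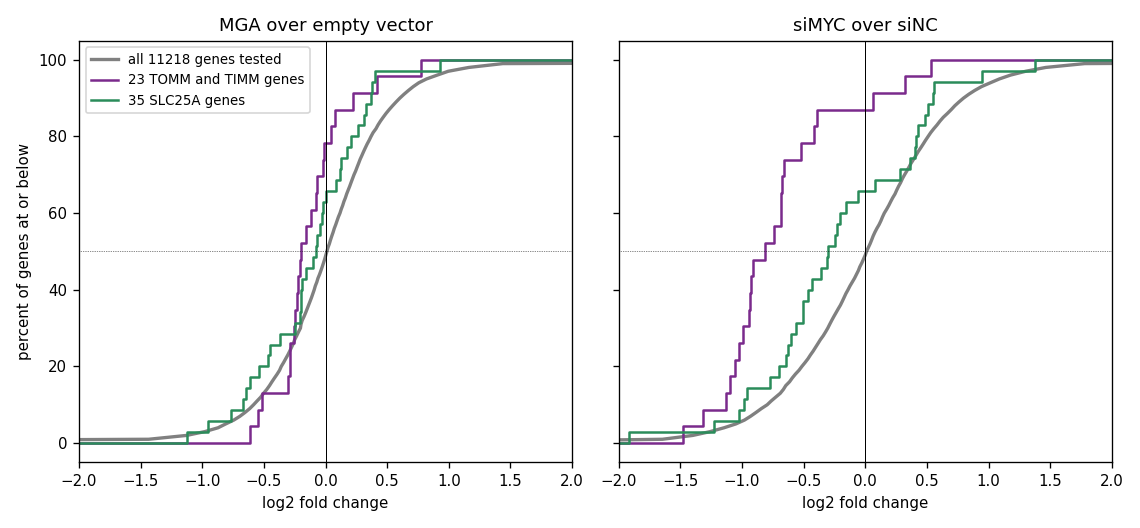
Cumulative share (percent) of tested import genes, carriers and all tested genes against the log2 fold change, for MGA against empty vector and for siMYC against siNC. With siMYC the import curve lies furthest to the left (median -0.81), the carrier curve between it and that of all genes (medians -0.30 and 0.01).

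The TOMM genes, which are the TOM complex and the cytosolic TOMM34, had 7 of 9 tested members lower with siMYC and 1 higher. Their median log2 fold change was -0.74. Over all genes, 20% were called lower and 19% higher. TOMM40, the barrel protein that forms the entry channel, was at 91.9 and 113 CPM in siMYC cells, against 287 and 280 CPM in siNC cells. Both siMYC libraries were far below both siNC libraries, and the log2 fold change was -1.48 (SE 0.11, adjusted p = 7.9e-11). This was the lowest adjusted p among the members in either comparison. TOMM22, the receptor that organises the complex, was at 28.03 and 37.4 CPM in siMYC cells, against 60.7 and 78.7 CPM in siNC cells (log2 fold change -1.13, SE 0.19, adjusted p = 1.9e-05). TOMM70A, the receptor that takes in carrier precursors, was at 75.8 and 82.2 CPM in siMYC cells, against 182 and 148 CPM in siNC cells (log2 fold change -1.06, SE 0.13, adjusted p = 1.9e-07). The groups of neither receptor overlapped.

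The small TOM subunits, which help to assemble and hold the channel, were lower as well. TOMM5 was at 59.3 and 71.2 CPM in siMYC cells, against 128 and 135 CPM in siNC cells (log2 fold change -1.02, SE 0.14, adjusted p = 7.2e-07). TOMM6 was at 48.3 and 47.9 CPM in siMYC cells, against 82.2 and 78.7 CPM in siNC cells (log2 fold change -0.74, adjusted p = 0.00027). TOMM7 was at 35.9 and 39.9 CPM in siMYC cells, against 57.9 and 63.0 CPM in siNC cells (log2 fold change -0.69, adjusted p = 0.002). None of these 3 subunits overlapped between siMYC and siNC, where 33.6% of all genes were lower without overlap. TOMM40L, a close relative of TOMM40, did not pass the test, at 7.35 and 11.7 CPM in siMYC cells against 12.9 and 11.7 CPM in siNC cells.

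TOMM20, the receptor for presequences, moved against the 7 TOMM genes called lower. It was at 198 and 183 CPM in siMYC cells, against 129 and 135 CPM in siNC cells, so that both siMYC libraries were above both siNC libraries. The log2 fold change was 0.53 (SE 0.11, adjusted p = 5e-04). Its promoter holds the first E-box window printed above.

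The TIM23 complex had 5 of its 7 tested genes lower with siMYC, 0 higher and a median log2 fold change of -0.91. Over all genes, 20% were called lower and 19% higher. At an unadjusted p under 0.05 the TIM23 count higher was also 0, as it was in DESeq2 and in limma on TPM. Of all 11218 genes, DESeq2 called 965 higher and limma on log2(TPM + 0.5) called 697. A count of 0 among 7 genes therefore says little in those tools. TIMM44, which tethers the import motor at the channel's exit, was at 22.1 and 9.21 CPM in siMYC cells, against 34.3 and 46.6 CPM in siNC cells (log2 fold change -1.31, SE 0.26, adjusted p = 0.00024). Its siMYC libraries differed from each other by more, in proportion, than those of the other genes of the complex that fell. TIMM21, which links the TIM23 complex to TOM, was at 20.2 and 16.6 CPM in siMYC cells, against 43.6 and 31.5 CPM in siNC cells (log2 fold change -0.99, adjusted p = 0.00099). TIMM23, the channel protein, was at 55.1 and 67.5 CPM in siMYC cells, against 119 and 113 CPM in siNC cells (log2 fold change -0.93, adjusted p = 3.8e-06). Both genes were lower in each siMYC library than in each siNC library.

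TIMM50, the presequence receptor of the inner membrane, was at 96.0 and 129 CPM in siMYC cells, against 196 and 221 CPM in siNC cells (log2 fold change -0.91, adjusted p = 6e-06). The paralogues of the channel's partner subunit differed in their values. TIMM17A was at 57.0 and 51.5 CPM in siMYC cells, against 97.2 and 95.05 CPM in siNC cells (log2 fold change -0.81, adjusted p = 4e-05). TIMM17B was at 37.2 and 55.2 CPM in siMYC cells, against 48.6 and 39.1 CPM in siNC cells (log2 fold change 0.06, adjusted p = 0.84). TIMM17A was lower in both siMYC libraries, and the TIMM17B groups overlapped. The difference between these paralogues was not tested. TIMM23B, a near-identical copy of TIMM23 whose reads may be divided with it, was at 12.4 and 8.59 CPM in siMYC cells and 7.14 and 20.4 CPM in siNC cells.

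The small TIMM chaperones and TIMM22 had 6 of 7 tested genes lower with siMYC, with a median log2 fold change of -0.67. Over all genes, 20% were called lower and 19% higher. TIMM13 was at 22.98 and 28.8 CPM in siMYC cells, against 50.7 and 58.3 CPM in siNC cells (log2 fold change -1.10, SE 0.19, adjusted p = 3.7e-05). TIMM9 was at 18.4 and 12.9 CPM in siMYC cells, against 28.6 and 32.7 CPM in siNC cells (log2 fold change -0.94, adjusted p = 0.0038). TIMM8A was at 13.8 and 6.75 CPM in siMYC cells, against 15 and 25.1 CPM in siNC cells (log2 fold change -0.93, adjusted p = 0.039). The groups of all 3 chaperones were apart, though TIMM8A by a narrow gap, where 33.6% of all genes were lower without overlap. TIMM10, TIMM8B and TIMM22, the insertion channel for carriers, fell by 0.52, 0.67 and 0.66 on the log2 scale (adjusted p = 0.04, 0.027 and 0.0062). TIMM10B had a log2 fold change of 0.32 (adjusted p = 0.22).

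**Figure D2:**
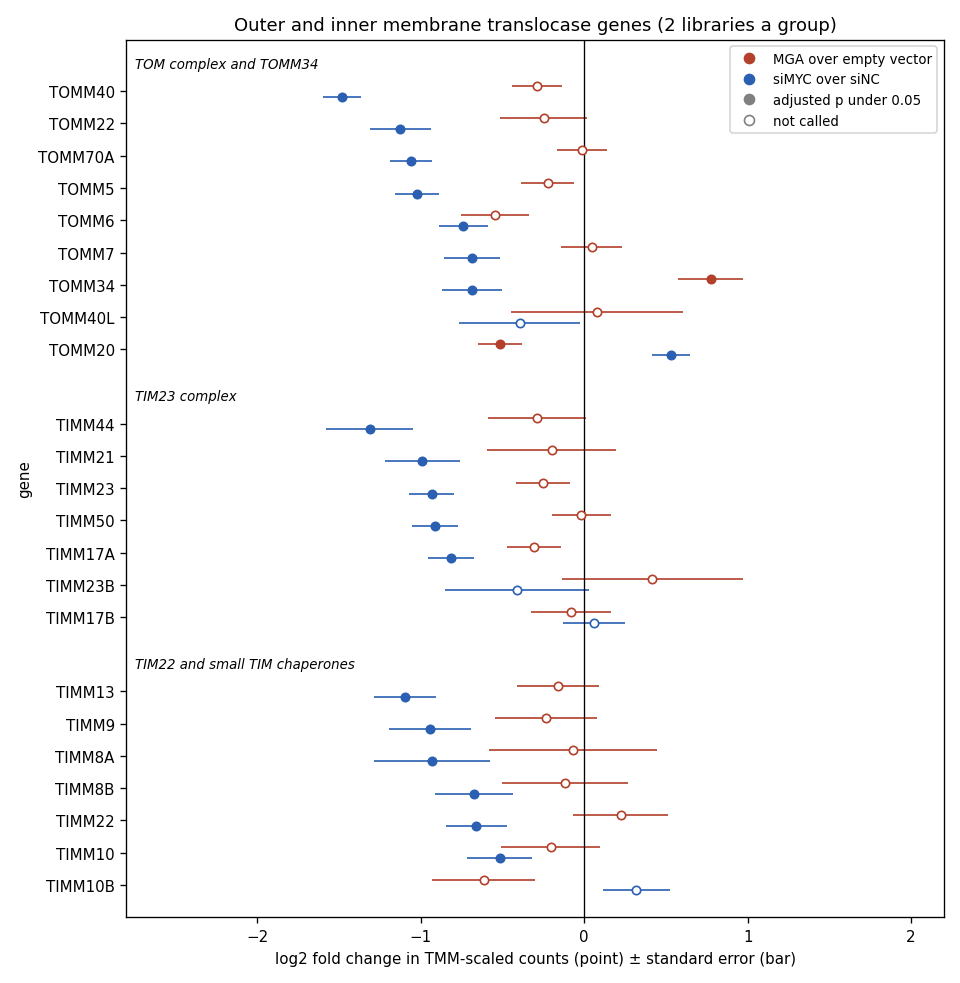
Log2 fold change with its standard error for each tested import gene, MGA against empty vector and siMYC against siNC, ordered by role. With siMYC 18 genes were called lower, from TOMM40 at -1.48 to TIMM10 at -0.52, and TOMM20 was called higher at 0.53.

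The carriers were divided by role. Among the ADP/ATP and phosphate carriers, 3 of 7 tested genes were lower with siMYC and 1 higher. For these small groups the shares over all genes were 20% lower and 19% higher. SLC25A5 was at 344 and 365 CPM in siMYC cells, against 561 and 546 CPM in siNC cells (log2 fold change -0.64, SE 0.09, adjusted p = 1e-06). SLC25A3 was at 376 and 396 CPM in siMYC cells, against 492 and 549.3 CPM in siNC cells (log2 fold change -0.43, adjusted p = 0.00025). SLC25A6 was at 183 and 183 CPM per copy in siMYC cells, against 222 and 247 CPM in siNC cells (log2 fold change -0.36, adjusted p = 0.0068). These 3 were lower in both siMYC libraries, where 33.6% of all genes were. SLC25A24, a calcium-regulated ATP-magnesium and phosphate carrier, was at 105 and 120 CPM in siMYC cells, against 87.9 and 86.9 CPM in siNC cells (log2 fold change 0.36, adjusted p = 0.037), with no overlap. SLC25A4, the ADP/ATP carrier of heart and muscle, was at 28.03 and 17.2 CPM in siMYC cells and 28.6 and 20.4 CPM in siNC cells, so the groups overlapped.

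Of 5 tested organic acid carriers, 1 was lower (20%) and 1 higher (20%) with siMYC, about the shares of all genes (20% and 19%). SLC25A10, the dicarboxylate carrier, was at 27.6 and 28.2 CPM in siMYC cells, against 49.3 and 79.3 CPM in siNC cells (log2 fold change -1.23, SE 0.20, adjusted p = 1.8e-05). SLC25A1, which exports citrate for lipid synthesis, was at 62.5 and 70.6 CPM in siMYC cells, against 40.7 and 48.4 CPM in siNC cells (log2 fold change 0.56, adjusted p = 0.011). Neither pair of groups overlapped. SLC25A11, the oxoglutarate carrier, and SLC25A20, the carnitine and acylcarnitine carrier, did not pass the test, with log2 fold changes of -0.21 and 0.43.

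Amino acid carriers had 4 of 7 tested genes lower and 1 higher with siMYC, where 20% of all genes were lower and 19% higher. SLC25A15, which exchanges ornithine for the urea cycle, was at 14.2 and 11.7 CPM in siMYC cells, against 19.3 and 30.9 CPM in siNC cells (log2 fold change -0.96, adjusted p = 0.013). SLC25A22, a glutamate carrier, was at 21.6 and 16.6 CPM in siMYC cells, against 35.7 and 30.9 CPM in siNC cells (log2 fold change -0.77, adjusted p = 0.0077). On log2 TPM the change of SLC25A22 was -0.12 (adjusted p = 0.84 in limma). SLC25A38, a glycine carrier that feeds haem synthesis, was at 32.6 and 30.7 CPM in siMYC cells, against 55.0 and 42.6 CPM in siNC cells (log2 fold change -0.60, adjusted p = 0.01). SLC25A13, an aspartate and glutamate carrier, was at 55.1 and 50.9 CPM in siMYC cells, against 79.3 and 72.3 CPM in siNC cells (log2 fold change -0.50, adjusted p = 0.0091). All of them were lower in both siMYC libraries, where 33.6% of all genes were. SLC25A29, a carrier of basic amino acids, had the largest called rise among the members, at 36.3 and 28.2 CPM in siMYC cells, against 12.9 and 12.2 CPM in siNC cells (log2 fold change 1.38, SE 0.25, adjusted p = 8.4e-05).

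Carriers of nucleotides and cofactors had 3 of 10 tested genes lower and 1 higher with siMYC, where 20% of all genes were lower and 19% higher. SLC25A32, a folate and flavin carrier, was at 35.9 and 29.5 CPM in siMYC cells, against 56.4 and 76.4 CPM in siNC cells (log2 fold change -1.02, adjusted p = 0.00011). SLC25A39, a glutathione carrier, was at 77.2 and 68.1 CPM in siMYC cells, against 129 and 158 CPM in siNC cells (log2 fold change -0.98, adjusted p = 2.1e-06). Neither overlapped between groups. SLC25A16, a carrier linked to coenzyme A, was at 17 and 27.6 CPM in siMYC cells, against 12.9 and 9.91 CPM in siNC cells (log2 fold change 0.95, adjusted p = 0.026). SLC25A51, the NAD carrier, and SLC25A33, a pyrimidine nucleotide carrier, did not pass the test, with log2 fold changes of -0.51 and -0.63.

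The iron carriers SLC25A37 and SLC25A28 (the mitoferrins) did not pass the test with siMYC, with log2 fold changes of -0.23 and -0.70 (adjusted p = 0.33 and 0.091). Of the 4 tested uncoupling-type and orphan carriers, SLC25A43 was called higher, where 19% of all genes were. It was at 55.6 and 57.7 CPM in siMYC cells, against 37.1 and 42.0 CPM in siNC cells (log2 fold change 0.51, adjusted p = 0.026). SLC25A46, an outer membrane member that acts in mitochondrial shape rather than transport, had a log2 fold change of 0.08 (adjusted p = 0.76).

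**Figure D3:**
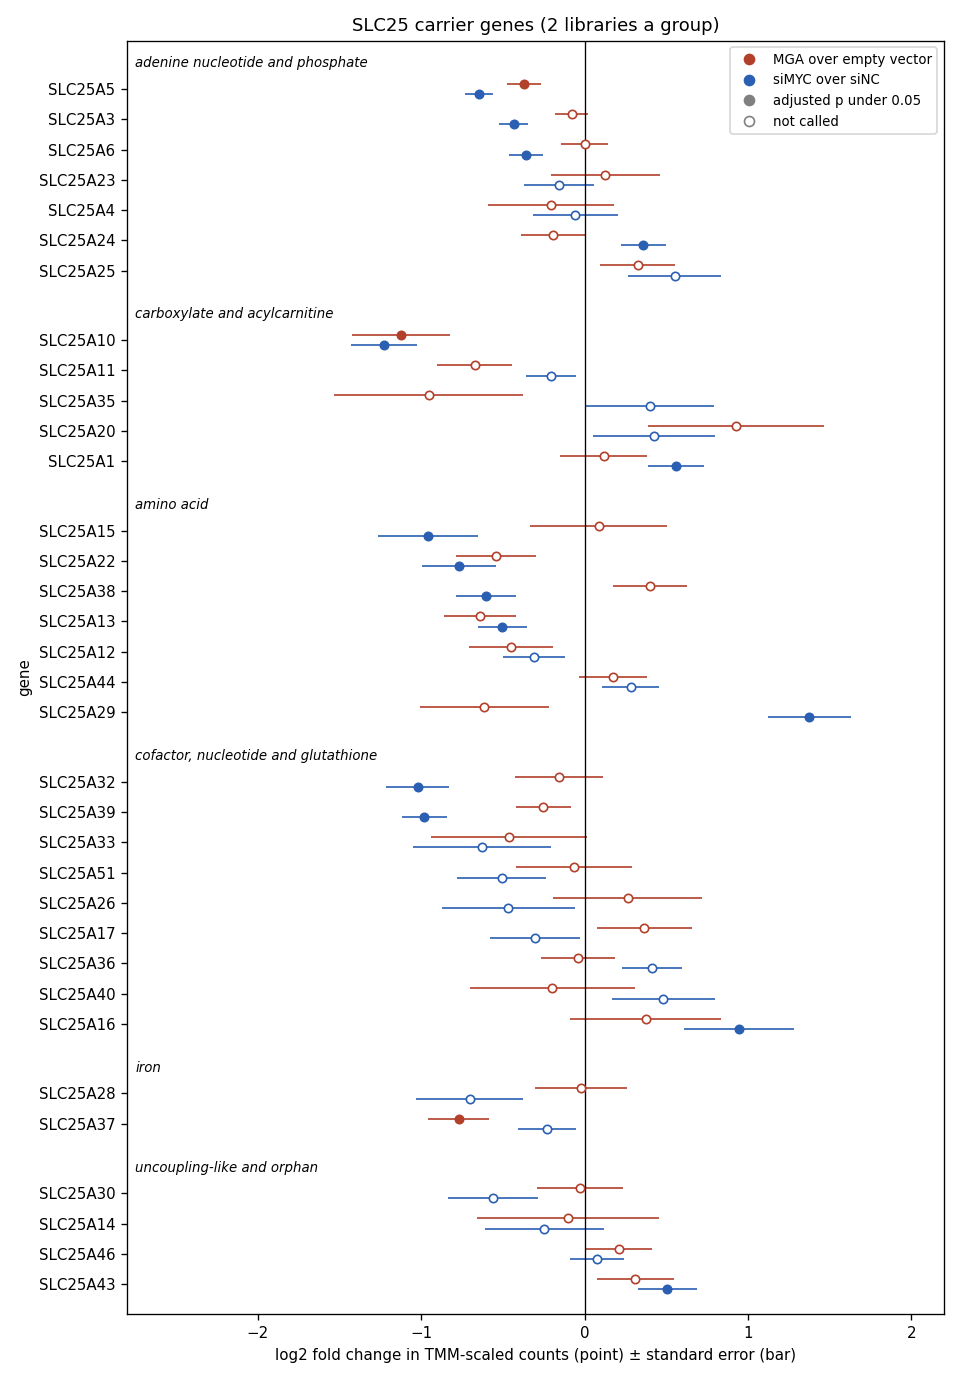
Log2 fold change with its standard error for the tested carriers (1 is not plotted), MGA against empty vector and siMYC against siNC, ordered by substrate. Of the 35 tested carriers, 11 were called lower with siMYC and 5 higher, and the plotted calls run from SLC25A10 at -1.23 to SLC25A29 at 1.38.

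Not all of these calls stood when 1 library was left out. With siMYC, 21 of the 35 called members (SLC25A6 counted once) remained called in every such refit, and none changed direction. Without siNC replicate A the calls of SLC25A1, SLC25A13, SLC25A22, SLC25A24, SLC25A38, SLC25A43 and TIMM8B were lost, with changes of 0.37 to 0.67 in size (adjusted p = 0.057 to 0.15). Without siNC replicate B those of SLC25A6, SLC25A15, SLC25A16, SLC25A24, SLC25A43, TIMM8A, TIMM10, TIMM22 and TOMM34 were lost, with changes of 0.29 to 0.74 (adjusted p = 0.052 to 0.47). Leaving out siMYC replicate A ended 4 calls, those of SLC25A43, TIMM8B, TIMM10 and TIMM22 (0.46 to 0.76, adjusted p = 0.062 to 0.17). Leaving out siMYC replicate B ended 9 calls, those of SLC25A1, SLC25A15, SLC25A16, SLC25A22, SLC25A24, SLC25A43, TIMM8A, TIMM8B and TIMM10 (0.26 to 0.85, adjusted p = 0.058 to 0.29). SLC25A24 was also lost without either MGA replicate, at 0.35 in both refits (adjusted p = 0.055 without replicate A and 0.054 without replicate B). TOMM40, TOMM22, TOMM70A, TOMM5, TIMM44, TIMM21, TIMM23 and TIMM50 were in none of these lists. The 10 calls kept in these refits and under every other setting tried included those of TOMM5, TOMM6, TOMM40, TOMM70A, TIMM13, TIMM17A, TIMM23, SLC25A5 and SLC25A39.

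Summed over each class, import RNA was lower relative to carrier RNA with siMYC. The import genes summed to 1616 ± 31.8 TPM in siMYC cells and 2476 ± 59.4 TPM in siNC cells (SD, n = 2 each). The carriers summed to 2234 ± 39.6 TPM in siMYC cells and 2680 ± 67.2 TPM in siNC cells. The ratio of import to carrier TPM was 0.723 and 0.725 in the siMYC libraries, against 0.925 and 0.923 in the siNC libraries. The gap between the groups far exceeded that between replicates, but with 2 libraries a group no exact test can reach a low p, and none is given. In MGA cells the ratio was 0.919 and 0.822, against 0.922 and 0.885 in empty vector cells, and these ranges overlapped.

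**Figure D4:**
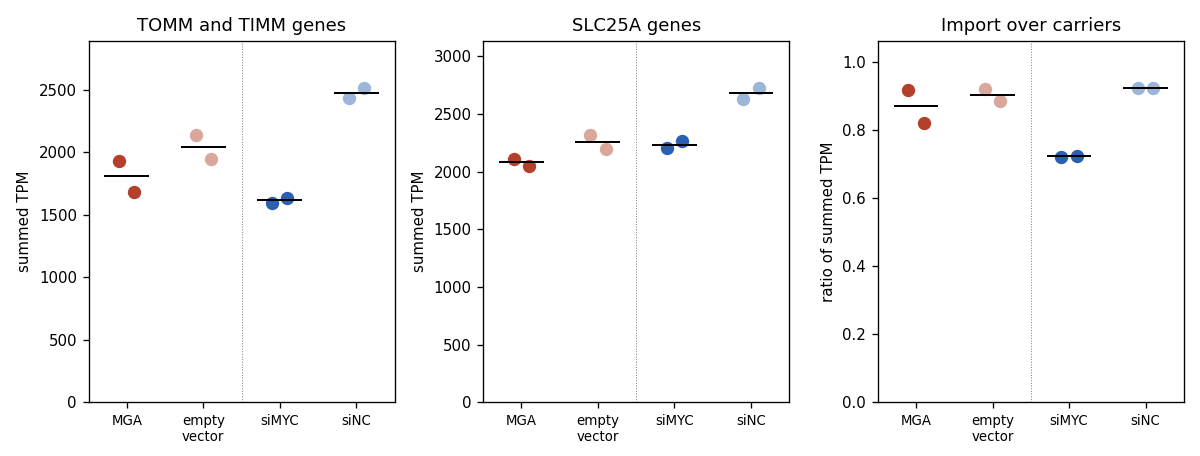
Summed TPM of import genes and of carriers, and the ratio of import to carrier TPM, in each library of MGA, empty vector, siMYC and siNC cells (points, with the group mean as a line). The siMYC libraries had ratios of 0.723 and 0.725 and the siNC libraries 0.925 and 0.923, while the MGA and empty vector ratios overlapped.

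With MGA overexpression these genes were called at about the share of all genes. Of the 23 import genes, 1 was called lower and 1 higher, where 8.96% of all genes were called, 4% lower and 4.96% higher. Of the 35 carriers, 3 were lower. No carrier was called higher in edgeR, in DESeq2 or in limma on TPM, and the edgeR count at an unadjusted p under 0.05 was also 0. Of all 11218 genes, DESeq2 called 163 higher and limma on log2(TPM + 0.5) called 24. A count of 0 among 35 carriers therefore says little in those tools. The median log2 fold change was -0.20 for the import genes, -0.08 for the carriers and 0.01 for all genes. The import median was -0.06 without MGA replicate B and -0.13 without empty vector replicate A. For the carriers, leaving out MGA replicate B gave a median of -0.05, and leaving out an empty vector library gave -0.03 (replicate A) or -0.13 (replicate B). Both MGA libraries lay below both empty vector libraries for 8 import genes and 11 carriers, where 25% of all genes did so, and above them for 1 import gene and 6 carriers, where 27.6% did so.

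TOMM20 was at 141 and 125 CPM in MGA cells, against 206 and 176 CPM in empty vector cells (log2 fold change -0.51, SE 0.14, adjusted p = 0.016). TOMM34, a cytosolic cochaperone that keeps precursors ready for import, was at 76.6 and 87.6 CPM in MGA cells, against 44.0 and 51.6 CPM in empty vector cells (log2 fold change 0.77, SE 0.20, adjusted p = 0.014). With siMYC, TOMM34 was at 34.9 and 27.6 CPM, against 47.9 and 53.6 CPM with siNC (log2 fold change -0.68, adjusted p = 0.004). Neither gene had overlapping groups in either comparison, and both had calls of opposite sign. They were the members called in opposite directions, 2 import genes and 0 carriers, where 1.28% of all genes were.

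SLC25A5 was at 328 and 300 CPM in MGA cells, against 420 and 394 CPM in empty vector cells (log2 fold change -0.37, SE 0.10, adjusted p = 0.019). SLC25A10 was at 20.98 and 19.9 CPM in MGA cells, against 49.8 and 39.6 CPM in empty vector cells (log2 fold change -1.12, SE 0.30, adjusted p = 0.017). These carriers were the 2 members called lower in both comparisons, where 1.91% of all genes were. SLC25A10 shares exon sequence with MRPL12 and a read-through gene model on the same strand, so its value is uncertain. SLC25A37, the iron carrier of developing red cells, was at 78.5 and 91.1 CPM in MGA cells, against 149 and 138 CPM in empty vector cells (log2 fold change -0.77, SE 0.19, adjusted p = 0.0091). On log2 TPM its change was -0.28 (adjusted p = 0.63 in limma).

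**Figure D5:**
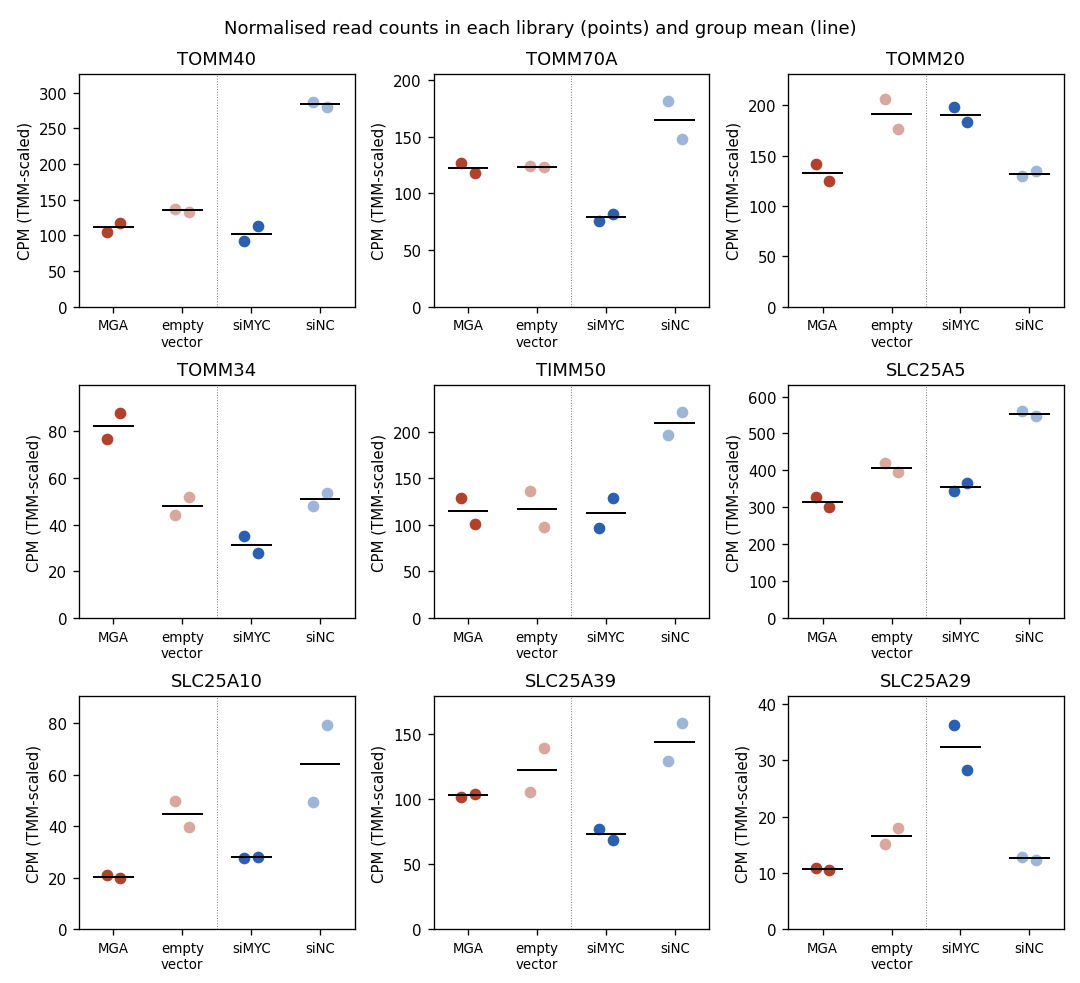
Normalised read counts (CPM, linear axes from 0) of 9 members in each library (points, 2 per group) with the group mean (line), for MGA, empty vector, siMYC and siNC cells. TOMM40 stands at 91.9 and 113 CPM in siMYC cells against 287 and 280 CPM in siNC cells, TOMM20 and TOMM34 move in opposite directions in the 2 comparisons, and SLC25A10 is lower in both.

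Each of the 5 calls with MGA rested on all or most of the 4 libraries. Without empty vector replicate A all 5 were lost, at changes of 0.33 to 0.95 in size (adjusted p = 0.11 to 0.21). Without empty vector replicate B those of SLC25A5, SLC25A37 and TOMM34 were lost (adjusted p = 0.054 to 0.064). Without MGA replicate A the call of TOMM34 alone remained (0.057 to 0.15 for the 4 others), and without MGA replicate B that of SLC25A37 (0.093 to 0.2 for the 4 others). All kept their direction. All 5 were lost in limma on TPM. DESeq2 lost 4 of them and gave SLC25A10 no adjusted p.

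Most import genes that fell with siMYC gave no call with MGA, and the width of the interval around the MGA value differed between genes. TOMM40 was at 105 and 118 CPM in MGA cells, against 138 and 133 CPM in empty vector cells. Its log2 fold change was -0.29 (95% interval -0.60 to 0.02, adjusted p = 0.26). TOMM70A was at 127 and 118 CPM in MGA cells, against 124 and 124 CPM in empty vector cells, with a 95% interval of -0.32 to 0.30. TIMM50 was at 129 and 100 CPM in MGA cells, against 137 and 97.1 CPM in empty vector cells, with a 95% interval of -0.39 to 0.36. For other genes the interval held the whole siMYC fall. It was -1.12 to 0.98 for TIMM8A, -1.01 to 0.61 for TIMM21 and -0.90 to 0.67 for TIMM8B. For TIMM10 it was -0.82 to 0.41, and for TOMM6 -0.97 to -0.12. Of these, the TOMM6 interval alone excluded 0. TOMM6 was at 43.8 and 39.7 CPM in MGA cells, against 55.6 and 67.2 CPM in empty vector cells (log2 fold change -0.54, adjusted p = 0.1). The MGA libraries of TOMM40 were both below those of the empty vector, while TOMM70A and TIMM50 overlapped. SLC25A3 was at 397 and 412 CPM in MGA cells, against 438 and 416 CPM in empty vector cells (log2 fold change -0.08, adjusted p = 0.7).

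The difference between the 2 responses was tested directly, as the log2 fold change with siMYC minus that with MGA. Overexpression and silencing were separate experiments with their own controls, so that experiment and treatment cannot be told apart in it. The control levels differed too: TOMM40 was at 138 and 133 CPM in empty vector cells and at 287 and 280 CPM in siNC cells. The difference was below 0 and called in 8 import genes and 2 carriers, where 18.5% of all genes were called, 10.3% below 0, and above 0 and called in 1 import gene and 1 carrier, where 8.22% were. It was -1.19 for TOMM40 (adjusted p = 5.2e-05), -1.46 for TOMM34 (adjusted p = 0.00034) and -1.05 for TOMM70A (adjusted p = 0.00042). TIMM13, TIMM50, TOMM5, TOMM7 and TIMM23 were the other import genes with a negative difference. SLC25A38, at 53.8 and 50.2 CPM in MGA cells against 39.4 and 39.6 CPM in empty vector cells, had a difference of -1.01 (adjusted p = 0.016), and SLC25A39 one of -0.73 (adjusted p = 0.019). TOMM20 had a difference of 1.05 (adjusted p = 0.00011). SLC25A29, at 10.9 and 10.5 CPM in MGA cells against 15.1 and 18.0 CPM in empty vector cells, had one of 1.99 (adjusted p = 0.0036). Across the 23 import genes the 2 responses had a Pearson correlation of -0.11 and a Spearman correlation of 0.18, and across the 35 carriers 0.24 and 0.30. These points share their libraries and are a description only.

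The other genes of the import route showed what surrounds the translocases. Of 24 matched genes for motors, peptidases, chaperones and assembly factors of import, 22 were tested, 13 were lower and 0 higher with siMYC, with a median log2 fold change of -0.62. The count higher at an unadjusted p under 0.05 was 1. Over all genes, 20% were called lower and 19% higher with siMYC. GRPEL1, the nucleotide exchange factor of the import motor, was at 22.5 and 27.0 CPM in siMYC cells, against 61.4 and 63.6 CPM in siNC cells (log2 fold change -1.35, adjusted p = 1.1e-06). HSPA9, the motor's chaperone that TIMM44 tethers, fell by 0.65 on the log2 scale with siMYC and by 0.34 with MGA (adjusted p = 3.3e-07 and 0.01). CHCHD4, which folds the small TIMM chaperones by disulfide bonds, and MIPEP, a presequence peptidase, fell by 0.79 and 0.98 with siMYC (adjusted p = 0.0055 and 0.0026). C19orf52, the older symbol of the TIM22 subunit TIMM29, did not pass the test (log2 fold change 0.58). With MGA, 3 of the 22 were lower, where 4% of all genes were. They were HSPA9 and the matrix folding chaperones HSPD1 and HSPE1, the last 2 with log2 fold changes of -1.11 and -1.46.

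Of 14 tested genes listed for other mitochondrial transport and outer membrane proteins, 7 were lower and 3 higher with siMYC. The list also held CLUH, which is neither, and CLUH was among the 7 (log2 fold change -0.88, adjusted p = 1.6e-07). The shares over all genes were 20% lower and 19% higher. LETM1, an inner membrane protein of ion exchange, was at 29.9 and 40.5 CPM in siMYC cells, against 124 and 109 CPM in siNC cells (log2 fold change -1.74, adjusted p = 2.9e-09). SFXN4, of the sideroflexin family, fell by 1.58 (adjusted p = 2.4e-05). The outer membrane pores VDAC1, VDAC2 and VDAC3 fell by 0.66, 0.67 and 0.70. MCU, the pore of the calcium uniporter, was at 126 and 136 CPM in siMYC cells, against 85.0 and 82.8 CPM in siNC cells (log2 fold change 0.64, adjusted p = 0.00019). With MGA, VDAC1 alone was called, at -0.40 (adjusted p = 0.012), where 8.96% of all genes were called.

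Some values carry a limit from gene structure. In the GENCODE v29 annotation of GRCh38, 28 tested member entries share exon bases with another gene, and 21 with a protein-coding one. On the same strand, where strand cannot separate the reads, these include SLC25A10 with MRPL12, TIMM13 with LMNB2, and TOMM5, TOMM6, SLC25A32 and TIMM10B with gene models that carry clone names only. On the opposite strand they include SLC25A11 with RNF167, SLC25A22 with PANO1, SLC25A32 with DCAF13, TIMM8B with NKAPD1, TIMM9 with KIAA0586, TIMM22 with ABR and TOMM70A with LNP1. No source used here says that strand was used in counting, and reads of these opposite-strand pairs may then not be told apart. The deposited counts were made on hg19 with an annotation that is not given. Some of the gene models named here may be absent from it.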

How the data were processed

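The labels' protocols give column purification of RNA, poly(A) isolation of messenger RNA and a library kit from that module's maker. The submitters' processing notes name STAR, RSEM and hg19, without versions, and the annotation is not given in the sources used here. Per the file headers, the authors deposited RSEM expected counts (estimates that need not be whole) and TPM (scaled to length and to a fixed total per library). The deposited FPKM values were not used.

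Expected counts were rounded, filtered with filterByExpr (minimum count 10, minimum total 15), scaled by TMM and fitted for all 4 groups in edgeR 4.0.16 (R 4.3.3) with the quasi-likelihood F test, with 4 residual degrees of freedom. P-values were adjusted by Benjamini-Hochberg over 11218 genes, with calls made below 0.05. A standard error is the log2 fold change divided by the square root of F. The code was checked on simulated counts. Alternatives were other scalings, no filter, DESeq2 1.42.0, limma 3.58.1 on log2(TPM + 0.5) or log2(TPM + 0.1), each experiment alone, a replicate block, summed copies and leaving out each library. Replicates within a group differed by more than sampling noise, so all 8 were kept. The excess was small in the overexpression experiment. Chi-square per degree of freedom was 1.13 for MGA and 1.18 for empty vector, against 1.82 for siNC and 1.85 for siMYC. The main fit shared 1 estimate of spread over both experiments. With each experiment alone, 14.3% of genes were called with MGA and 37.4% with siMYC.

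Members and lists were chosen with earlier results of these data known. Per-library values, in at least 1 of the comparisons, are given by a rule. It names members called with MGA and the 3 largest called falls and rises with siMYC in each role group. It also names members called in the difference of responses and the 3 highest by TPM in each class. TOMM6 and TOMM7 (both also named by the rule), TIMM17A, SLC25A13 and the members that did not pass the test were added after their values were seen. The T-box search was added then too. Values of 1 carrier named by this rule are not reported here, though the counts and medians over its class include it.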

Additional observations from a re-analysis of the deposited data

Results flagged for a closer look

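The response to siMYC (against siNC) differed from the response to MGA (against empty vector) by a direct test in 12 members. That was 20.7% of the 58 tested members (SLC25A6 counted once), near the 18.5% of all genes called in this test. The difference, on the log2 scale and as siMYC minus MGA, was 1.99 for SLC25A29, 1.05 for TOMM20, -1.46 for TOMM34, -1.19 for TOMM40, -1.05 for TOMM70A, -1.01 for SLC25A38, -0.94 for TIMM13, -0.90 for TIMM50, -0.80 for TOMM5, -0.73 for TOMM7, -0.73 for SLC25A39 and -0.68 for TIMM23. Adjusted p in edgeR ran from 5.2e-05 for TOMM40 to 0.042 for TOMM7. TOMM40 alone was called under every alternative, and 5 of the 12 were kept whichever library was left out. No group held enough libraries for a search for single outlying samples.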

How the results depend on the processing

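Counts of called members depended on the tool more than on the scaling. With siMYC, the import genes called lower numbered 18 in edgeR, 10 in DESeq2 and 7 in limma on TPM at either pseudocount, and the 1 called higher became 0 in limma. The 11 carriers lower became 5 in DESeq2 and 3 in limma, and the 5 higher became 1 and 0. With MGA, the import gene called lower became 2 with library sizes alone and 0 in DESeq2 and limma, the 1 higher became 0 in both, and the 3 carriers lower became 5 with upper-quartile scaling, with library sizes alone and with each experiment alone, and 0 in DESeq2 and limma. For the difference of responses, the 8 import genes below 0 became 5 with upper-quartile scaling, library sizes alone or TMM without the MGA gene, 3 in DESeq2 and 1 in limma, and the 1 above 0 became 2 with library sizes alone and 0 in limma. The 2 carriers below 0 became 1 with upper-quartile scaling or library sizes alone and 0 in DESeq2 and limma, and the 1 above 0 became 2 with library sizes alone and 0 in DESeq2 and limma. Over all genes DESeq2 called 358 with MGA, 1971 with siMYC and 827 in the difference, against 1005, 4370 and 2076 in edgeR, and limma at the larger pseudocount called 69, 1229 and 344. The causes were not tested.

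Leaving out each library gave 14 to 18 import genes lower, 1 higher, 8 to 11 carriers lower and 1 to 5 higher with siMYC, and 0 to 1 import gene lower, 0 to 1 higher, 0 to 4 carriers lower and 0 higher with MGA. The difference gave 4 to 10 import genes below 0, 1 above, 1 to 3 carriers below and 1 to 2 above. The log2 ratio of import to carrier level, siMYC minus siNC, was -0.353 (-0.355 to -0.351 without 1 library) and -0.395 on CPM. It was -0.436 without the 3 highest entries of each class, which leaves 1 copy of SLC25A6 in. MGA minus empty vector it was -0.0561, from -0.136 to 0.0241, and positive only without MGA replicate B. No called member changed sign under any alternative. The import median with siMYC ran from -0.59 on TPM to -0.88 with no filter. Library sizes alone moved the median of all genes with MGA to -0.12, and TPM moved that with siMYC to 0.14. The carrier median in the difference was -0.14, and 0.03 with library sizes alone.

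The labels do not say that the replicate letters pair libraries. Same-letter deviations correlated at 0.006 between MGA and empty vector and 0.273 between siMYC and siNC, and with 2 libraries a group this does not settle the pairing. With the replicate block 1097 genes were called with MGA, 4547 with siMYC and 2180 in the difference, no member's call was lost, and the members below 0 in the difference became 9 import genes and 3 carriers. Low depth limits the members with few counts, as the standard error of SLC25A16 with siMYC (0.34) shows.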
